A study of Caenorhabditis elegans with 6 samples.

Results

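The caveolin and stomatin family genes examined here are 10 genes for proteins that sit in the inner leaflet of membranes: the caveolins cav-1 and cav-2, and the stomatin relatives mec-2, unc-1, unc-24, sto-1, sto-2, sto-4, sto-5 and stl-1. They were taken by symbol from the table of 46748 genes, all 10 were found, and all 10 had enough counts to be tested. RNA was sequenced from whole Caenorhabditis elegans at day 1 of adulthood, in 3 groups of 2 libraries: worms fed bacteria that carry RNAi toward daf-2, worms fed bacteria that carry RNAi toward cav-1, and worms on the empty vector (EV), which the sample titles call untreated. Every group was strain CF512, was raised from eggs at 25 °C for 48 h, which makes this strain sterile, per the labels' protocols. Per the series' design text there were 2 biological repeats, each with 1 sample of every kind. The series title gives the purpose as a comparison of expression profiles.

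Caveolins are hairpin proteins that coat small invaginations of the plasma membrane and bind cholesterol. The CAV-1 protein of C. elegans is known from the germ line, where it sits in vesicles of the oocyte that are released after fertilization, from embryos, and from adult neurons, and cav-2 is known for lipid trafficking in the intestine. Stomatins are hairpin proteins too. They share the domain that also marks prohibitins and flotillins, and several of them tune ion channels: MEC-2 is needed by the channel that opens on gentle touch, and UNC-1 acts on the gap junction protein UNC-9 and is needed for coordinated movement and for the normal response to volatile anaesthetics. daf-2 encodes the insulin/IGF-1 receptor, and in C. elegans RNAi by feeding is known to be weak in many neurons.

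The genes lie apart in the genome. In the Ensembl annotation of build WBcel235, 6 of 10 are on chromosome X, 2 on IV, 1 on V and 1 on I. cav-1 (WBGene00000301) is the shortest, with 2 exons on chromosome IV from 9772510 to 9773559 on the forward strand and a longest transcript of 925 bases. cav-2 (WBGene00000302) has 10 exons on chromosome V from 13557104 to 13559922. mec-2 (WBGene00003166), on chromosome X from 5567754 to 5590830, has the longest transcript, at 4053 bases, and 17 annotated transcripts that the counts do not separate. 5 members overlap no other annotated gene. sto-2, sto-4, sto-5, mec-2 and unc-24 overlap noncoding RNA genes, and whether counting used the strand is not given in the sources used here.

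Total counts ran from 25474328 to 32886440 per library. Levels are given as scaled CPM, which are counts relative to the library total (CPM) after scaling by trimmed mean of M values (TMM). Differences are in log2 of the scaled CPM plus 1, which understates the change of low genes. Folds given with them are of the same scaled CPM plus 1. Both come from limma-trend over 14378 genes in all 6 libraries with the repeat as a block. A gene was called at an adjusted p under 0.05. Because only 2 libraries stood in a group, values are given per library, repeat 1 first. In whole worms, fewer cells of a type and less RNA per cell cannot be told apart. Every listed marker gene of neurons, muscle, intestine and oocytes was detected, as were 10 of 11 early embryo genes, and the summed level of 11 sperm genes was 2.19 to 5.30 CPM in every library, with 4 of the 11 at 0 throughout and 1 of the 11 tested and not called under either treatment.

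Each RNAi target was lowest in the worms treated against it. daf-2 was counted 771 and 1012 times in daf-2 RNAi worms, 1954 and 5933 times in cav-1 RNAi worms, and 1090 and 5102 times in EV worms. Both daf-2 RNAi libraries were the lowest of the 6, and it fell by 1.63 on the log2 scale (SE 0.39, limma-trend adjusted p = 0.03), with -0.67 in repeat 1 and -2.58 in repeat 2. That call was lost in 6 of the 14 alternatives with the block, among them without repeat 2 of daf-2 RNAi (-0.53, adjusted p = 0.641), without repeat 2 of EV (-1.09, adjusted p = 0.113) and without repeat 1 of cav-1 RNAi (-1.59, adjusted p = 0.0679), and it was lost without the replicate block (adjusted p = 0.991). In cav-1 RNAi worms daf-2 lay at 0.31 (SE 0.39, adjusted p = 0.977).

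Per transcript length, cav-1 and stl-1 stood far above the rest in EV worms. In TPM, the length-corrected share of all transcripts by the longest annotated one, cav-1 was at 197 and 243, and stl-1, whose relative in mammals is a protein of the mitochondrial inner membrane, was at 333 and 91.1. Their ranges overlapped, so their order is not set. Next came sto-1 at 20.3 and 24.7 TPM, sto-4 at 6.90 and 19.1 TPM, cav-2 at 8.15 and 3.43 TPM and unc-1 at 3.20 and 2.17 TPM. The lowest were unc-24, with a mean of 1.31 TPM, sto-5 with 1.13 TPM, mec-2 with 0.265 TPM and sto-2 with 0.105 TPM. Apart from cav-1 with stl-1, the neighbours in this order whose EV libraries overlapped were sto-4 with cav-2 and unc-24 with sto-5. cav-1 stood at percentile 94.5 of the tested genes by this measure and sto-2 at percentile 0.427, so the family spans nearly the whole range of levels.

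**Figure D1:**
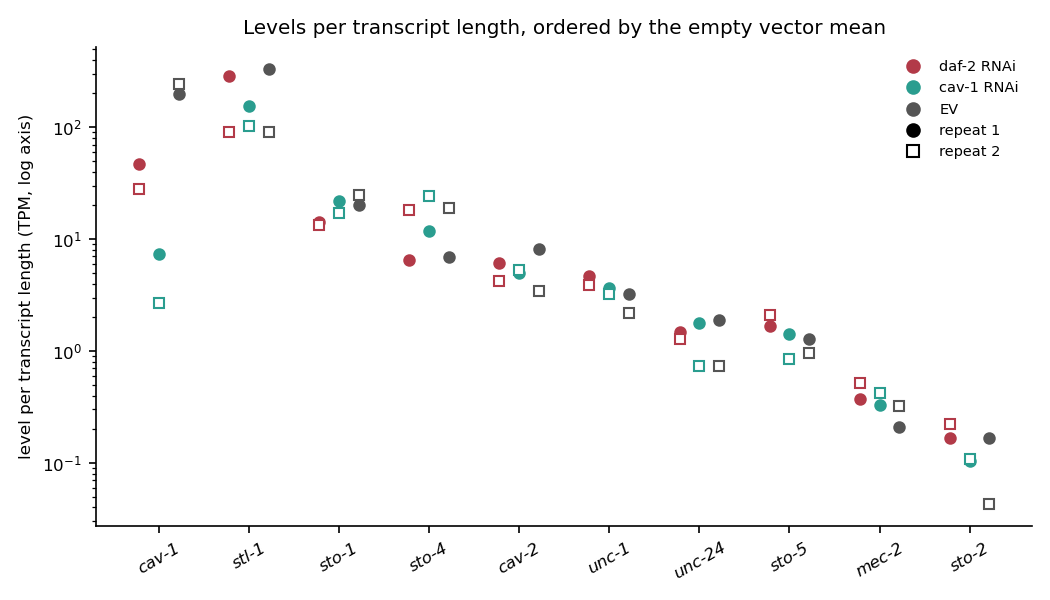
Level of each gene per transcript length (TPM, log axis) in daf-2 RNAi, cav-1 RNAi and EV worms, with repeat 1 as filled circles and repeat 2 as open squares and the genes ordered by their EV mean. cav-1 lies between stl-1 and sto-1 in daf-2 RNAi worms and below sto-4 in cav-1 RNAi worms, and the lowest genes, mec-2 and sto-2, stay under 1 TPM in every library.

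cav-1 carried the largest change of the family, and the direction was the same under both treatments. It was counted 1249 and 701 times in daf-2 RNAi worms, 207 and 51 times in cav-1 RNAi worms, and 4545 and 4999 times in EV worms. In scaled CPM these are 42.7 and 21.2 in daf-2 RNAi worms, 6.13 and 1.84 in cav-1 RNAi worms, and 178 and 184 in EV worms. The 3 groups did not overlap: both cav-1 RNAi libraries lay below both daf-2 RNAi libraries, and these below both EV libraries. The EV libraries were close to each other, and within each RNAi group repeat 2 was the lower one.

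Under daf-2 RNAi cav-1 fell by 2.55 on the log2 scale, 5.84-fold (SE 0.33, 95% interval from -3.27 to -1.83, limma-trend adjusted p = 0.00191). The difference was -2.03 in repeat 1 and -3.06 in repeat 2, and relative to the EV library of its own repeat 24% and 11.5% of the cav-1 level were left. Only 18 of the 14378 tested genes had a lower log2 difference. This was the 1 member of 10 called lower, against a background of 3.13% of all genes called lower, and no member was called higher, against 4.31%. These shares stand for 620 genes higher and 450 lower, a balance that became 309 higher and 511 lower without repeat 2 of EV and 529 higher and 167 lower with a stricter filter on low values. The call held in all 14 alternatives that kept the replicate block, with differences between -3.15 and -1.94, and was lost without the block (adjusted p = 0.521). In the authors' deposited table the log2 fold change of cav-1 in this comparison is -2.33 (SE 0.310, adjusted p 1.91e-11).

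In cav-1 RNAi worms, where cav-1 is the gene targeted, it fell by 5.34 on the log2 scale, 40.4-fold in scaled CPM plus 1 (SE 0.33, limma-trend adjusted p = 9.39e-05). Relative to the EV library of the same repeat, 3.45% of its level was left in repeat 1 and 0.999% in repeat 2. Among the 14378 tested genes cav-1 was the only one called in this comparison, so 0.00696% of all genes were called lower and 0% higher. That count also turned on the libraries: with 1 left out it was lowest without repeat 1 of cav-1 RNAi and highest without repeat 2. A fit without a library estimates anew how far genes share their spread. Its number of calls is therefore not on the scale of the full fit. In the full fit 573 genes passed at an unadjusted p under 0.05, and of the members cav-1 alone. The call was lost without the replicate block (adjusted p = 0.75) and without repeat 1 of cav-1 RNAi (-5.77, adjusted p = 0.0553). Set directly against daf-2 RNAi, cav-1 was a further 6.92-fold lower in scaled CPM plus 1 in cav-1 RNAi worms (log2 difference -2.79, SE 0.33, limma-trend adjusted p = 0.00106). It was the 1 member called in that comparison, beside 6.87% of all genes called lower and 3.74% called higher. With median-of-ratios scaling that balance turned, from 988 lower and 538 higher to 1191 lower and 1906 higher. That comparison also lost cav-1 without the block (adjusted p = 0.436).

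The authors' deposited table gives log2 fold changes of -4.73 for cav-1 RNAi against EV (SE 0.314) and -2.40 for cav-1 RNAi against daf-2 RNAi (SE 0.315). Both have adjusted p under the cutoff of the authors' flag, at 6.74e-47 and 5.70e-12. For cav-1 RNAi against EV the authors' table has 81 genes with an adjusted p under 0.05, where limma-trend called cav-1 alone. The single call is thus particular to the fit used here.

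**Figure D2:**
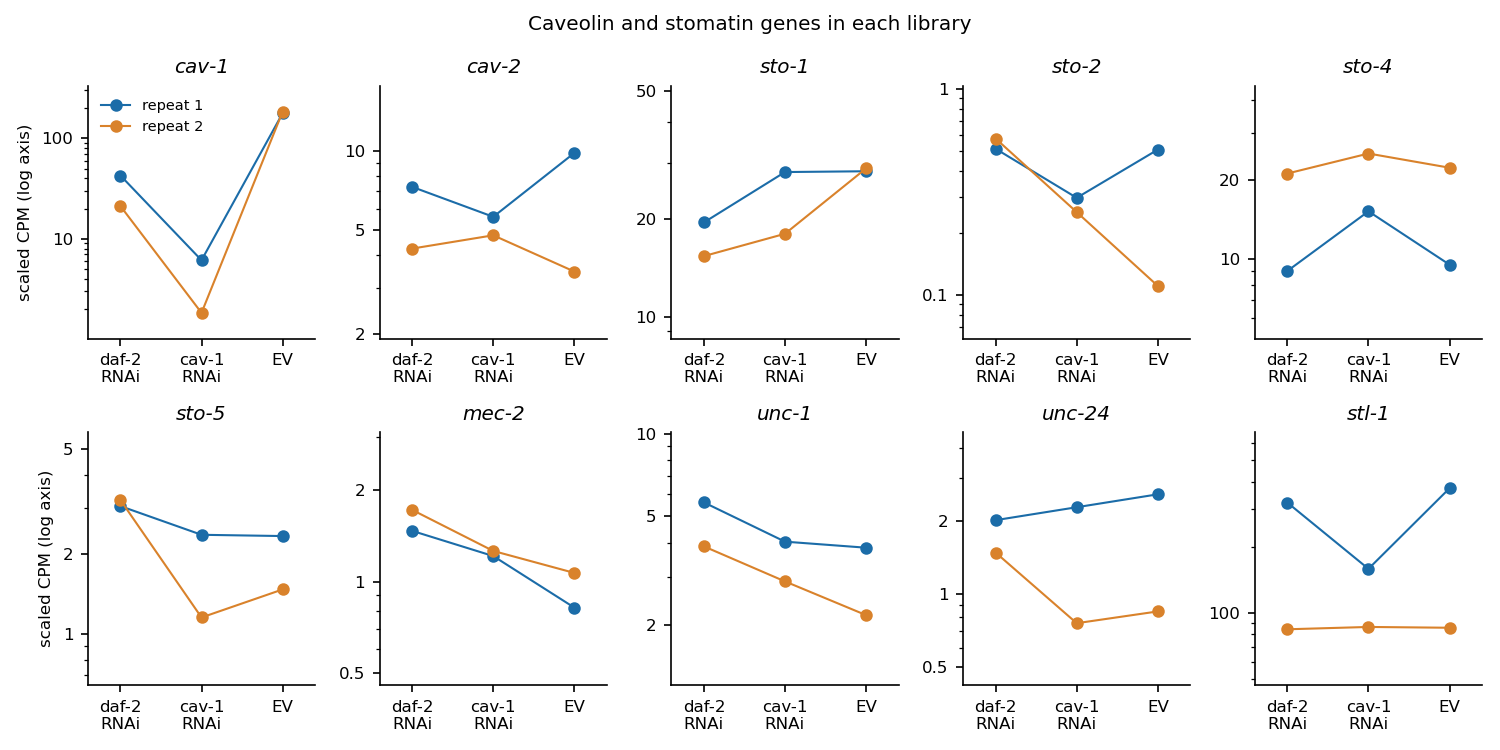
Scaled CPM (log axis, a scale for each gene) of the 10 genes in daf-2 RNAi, cav-1 RNAi and EV worms, with a line for each repeat. For cav-1 the 3 groups separate in both repeats, and repeat 2 lies above repeat 1 in every group for sto-4 and below it in every group for stl-1.

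cav-2, the second caveolin, did not pass the test under either treatment. Its counts were 213 and 140 in daf-2 RNAi worms, 189 and 132 in cav-1 RNAi worms, and 251 and 94 in EV worms. The EV libraries lay on either side of all 4 RNAi libraries, so no group stood apart. The log2 difference was -0.08 under daf-2 RNAi (SE 0.31, 95% interval from -0.75 to 0.60, limma-trend adjusted p = 0.879) and -0.17 under cav-1 RNAi (SE 0.31, 95% interval from -0.84 to 0.50, adjusted p = 0.982). The repeats differed in sign, with -0.71 in repeat 1 and 0.37 in repeat 2 under cav-1 RNAi. The lower ends of these intervals, -0.75 and -0.84, leave room for a fall of that size, so the test does not show that cav-2 was unaffected. Per length, cav-1 exceeded cav-2 by 7.82-fold and 6.67-fold in daf-2 RNAi worms, stood at 1.46 and 0.515 times cav-2 in cav-1 RNAi worms, and exceeded it by 24.1-fold and 70.9-fold in EV worms.

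The genes next to cav-1 on chromosome IV were followed for comparison. sna-2 lies 1046 bases away and had 4473 and 3578 counts in daf-2 RNAi worms, 6422 and 4449 in cav-1 RNAi worms, and 7193 and 3775 in EV worms. It was not called under daf-2 RNAi (log2 difference -0.62, SE 0.24, limma-trend adjusted p = 0.159) or under cav-1 RNAi (-0.18, SE 0.24, adjusted p = 0.979). T13F2.6, 4762 bases away, was not called against EV either, with -0.63 under daf-2 RNAi (adjusted p = 0.181) and 0.45 under cav-1 RNAi (adjusted p = 0.977). Under cav-1 RNAi no tested gene other than cav-1 was called. Set against daf-2 RNAi, T13F2.6 was called higher in cav-1 RNAi worms (1.07, SE 0.26, limma-trend adjusted p = 0.029), as were 3.74% of all genes. sna-2 was not called there (0.44, SE 0.24, adjusted p = 0.206). On the other side, msp-78, a sperm protein gene, and the pseudogene WBGene00011748 had at most 4 counts in any library and were not tested.

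Among the 9098 genes that averaged 5 CPM or more, the 5 whose differences in the 2 repeats of daf-2 RNAi were nearest to those of cav-1 were Y82E9BR.17, C08F1.10, arrd-1, cec-8 and C35E7.5. Their Euclidean distances from cav-1, over these 2 log2 differences, ran from 0.194 to 0.382. In cav-1 RNAi worms they lay at log2 differences of -0.22, -0.14, 0.00, -0.28 and -0.31 in the same order. None was called there, as was the case for every tested gene other than cav-1. Y82E9BR.17, for example, had 193 and 30 counts in daf-2 RNAi worms, 815 and 322 in cav-1 RNAi worms, and 669 and 403 in EV worms.

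mec-2, the stomatin of the touch receptor, had few counts: 43 and 57 in daf-2 RNAi worms, 41 and 35 in cav-1 RNAi worms, and 21 and 29 in EV worms. In scaled CPM it was 1.47 and 1.72 in daf-2 RNAi worms, 1.21 and 1.26 in cav-1 RNAi worms, and 0.8205 and 1.068 in EV worms. All 4 RNAi libraries lay above both EV libraries, but neither difference passed the test. The log2 differences were 0.42 under daf-2 RNAi (SE 0.20, limma-trend adjusted p = 0.215) and 0.21 under cav-1 RNAi (SE 0.20, adjusted p = 0.977).

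unc-1 (WBGene00006741, chromosome X from 1057487 to 1062453) had 164 and 128 counts in daf-2 RNAi worms, 136 and 80 in cav-1 RNAi worms, and 98 and 59 in EV worms. Scaled CPM were 5.61 and 3.87 in daf-2 RNAi worms, 4.03 and 2.88 in cav-1 RNAi worms, and 3.83 and 2.17 in EV worms. The daf-2 RNAi libraries lay above the EV libraries by a small margin, at a log2 difference of 0.54 (SE 0.25, 95% interval from -0.01 to 1.08, limma-trend adjusted p = 0.21). Within each repeat the order was daf-2 RNAi, cav-1 RNAi, EV from high to low. The cav-1 RNAi difference was 0.18 (SE 0.25, adjusted p = 0.979).

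unc-24 (WBGene00006761, chromosome IV from 7979870 to 7982011) encodes a stomatin joined to a lipid transfer domain and is also needed for coordinated movement. It was counted 59 and 49 times in daf-2 RNAi worms, 77 and 21 times in cav-1 RNAi worms, and 66 and 23 times in EV worms. The groups overlapped, since repeat 1 was the higher library in each. The log2 difference was 0.09 under daf-2 RNAi (SE 0.23, limma-trend adjusted p = 0.814) and -0.10 under cav-1 RNAi (SE 0.23, adjusted p = 0.986).

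The roles of the 4 sto genes are less known. Against EV, sto-1 had the lowest p of them. sto-1 (WBGene00006063, chromosome X from 7562824 to 7564814) had 573 and 509 counts in daf-2 RNAi worms, 947 and 501 in cav-1 RNAi worms, and 722 and 782 in EV worms. In scaled CPM the values were 19.6 and 15.4 in daf-2 RNAi worms, 28.1 and 18.1 in cav-1 RNAi worms, and 28.2 and 28.8 in EV worms. Both daf-2 RNAi libraries lay well below both EV libraries, while cav-1 RNAi repeat 1 was close to EV and repeat 2 was not. In daf-2 RNAi against EV 24.2% of all tested genes had an unadjusted p under 0.05 in limma-trend. sto-1 was among them, with a log2 difference under daf-2 RNAi of -0.68 (SE 0.27, 95% interval from -1.27 to -0.10, unadjusted p = 0.0265 in limma-trend). Its adjusted p of 0.154 missed the threshold. In the authors' deposited table this difference is -0.72 (SE 0.267) with an adjusted p of 0.0665, and it carries the authors' flag for a change, which was given up to an adjusted p of 0.0998. Under cav-1 RNAi it was -0.33 (SE 0.27, limma-trend adjusted p = 0.977).

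sto-5 (WBGene00006067, chromosome X from 16816260 to 16825458) was at 3.04 and 3.21 CPM in daf-2 RNAi worms, 2.37 and 1.15 CPM in cav-1 RNAi worms, and 2.34 and 1.47 CPM in EV worms. These CPM rest on 32 to 106 counts. The daf-2 RNAi libraries were the highest of the 6. The log2 difference from EV was 0.52 (SE 0.25, limma-trend adjusted p = 0.222). Set against daf-2 RNAi, cav-1 RNAi worms were 0.61 lower on the log2 scale (difference -0.61, SE 0.25, limma-trend adjusted p = 0.104). That difference hardly moved when an EV library was left out, at -0.614 without repeat 1 of EV and -0.617 without repeat 2. The EV libraries enter this comparison only through the shared spread and the scaling.

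sto-4 (WBGene00006066, chromosome X from 11644126 to 11647425) was at 9.02 and 21.1 CPM in daf-2 RNAi worms, 15.2 and 25.1 CPM in cav-1 RNAi worms, and 9.53 and 22.2 CPM in EV worms. Repeat 2 was the higher library in every group, and the groups overlapped. The log2 difference was -0.07 under daf-2 RNAi (SE 0.27, limma-trend adjusted p = 0.874) and 0.39 under cav-1 RNAi (SE 0.27, adjusted p = 0.977). sto-2 (WBGene00006064, chromosome X from 5307486 to 5323387) had 15 and 19 counts in daf-2 RNAi worms, 10 and 7 in cav-1 RNAi worms, and 13 and 3 in EV worms. At 3 to 19 counts a library no difference of its size was detectable. The log2 difference was 0.25 under daf-2 RNAi (SE 0.18, adjusted p = 0.367) and -0.02 under cav-1 RNAi (SE 0.18, adjusted p = 0.998).

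stl-1 (WBGene00006061, chromosome I from 9486645 to 9488029) held most of the stomatin RNA. Per length it made up 65.4% to 90.8% of the summed level of the 8 stomatin genes in each library. It had 9383 and 2787 counts in daf-2 RNAi worms, 5385 and 2397 in cav-1 RNAi worms, and 9553 and 2327 in EV worms. Repeat 1 was higher in all 3 groups, and in repeat 2 the libraries were close together, at 84.3 CPM in daf-2 RNAi worms, 86.4 CPM in cav-1 RNAi worms and 85.7 CPM in EV worms. The difference under daf-2 RNAi was -0.12 (log2, SE 0.29, limma-trend adjusted p = 0.801). Under cav-1 RNAi it was -1.22 in repeat 1 and 0.01 in repeat 2, with a fitted value of -0.60 (SE 0.29, adjusted p = 0.977). Without repeat 2 of cav-1 RNAi the fitted value was -1.25, and without repeat 1 of cav-1 RNAi it was -0.012, so this value turns on 1 library.

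**Figure D3:**
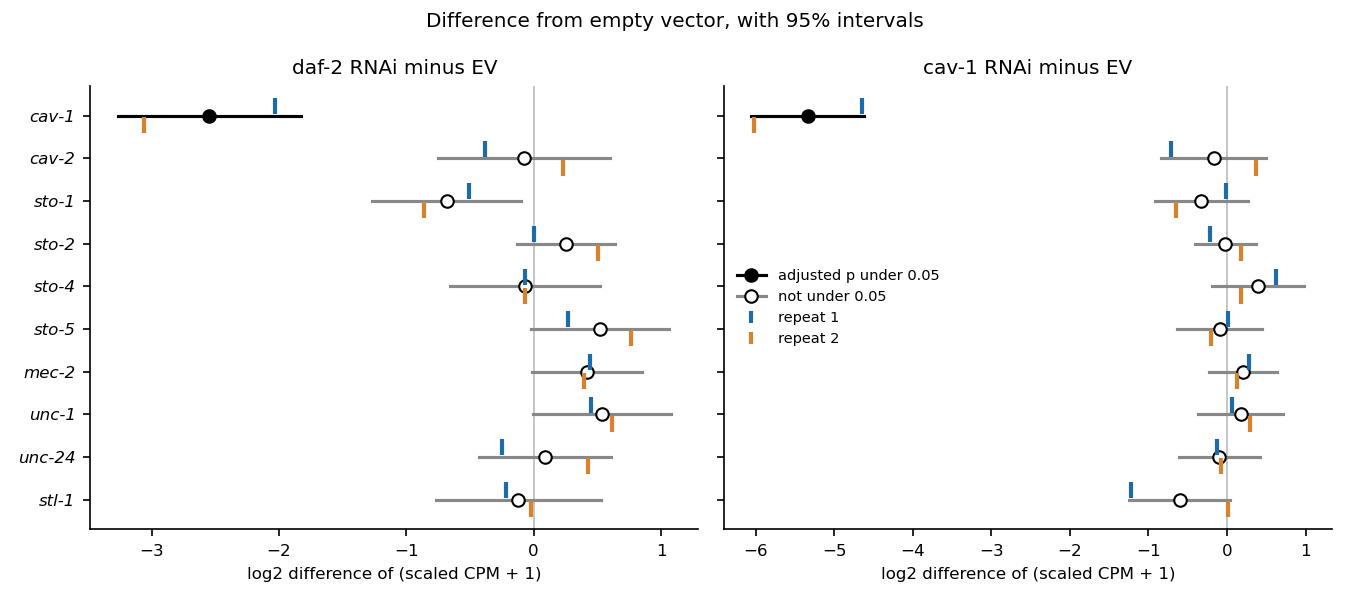
Log2 difference of (scaled CPM + 1) from EV for the 10 genes in both RNAi groups, with 95% intervals as lines, filled points for adjusted p under 0.05 and short ticks for each repeat. cav-1 alone is filled on both sides, at -2.55 in daf-2 RNAi worms and -5.34 in cav-1 RNAi worms, and of the other intervals all include 0 except that of sto-1 under daf-2 RNAi.

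No member other than cav-1 was called under either treatment, and the intervals of several leave room for changes. In cav-1 RNAi against EV that was so for every tested gene other than cav-1. Under daf-2 RNAi 5 members lay above 0 and 5 below, with a median of 0.01, beside a median of -0.05 over all tested genes. sto-2, sto-5, mec-2 and unc-1 had both daf-2 RNAi libraries above both EV libraries, 4 of 10 against 15.7% of all genes. cav-1 and sto-1 had both below, 2 of 10 against 12% of all genes. Under cav-1 RNAi the median of the members was -0.10 and that of all genes -0.01. mec-2 was the 1 member with both libraries above EV, against 5.6% of all genes, and cav-1 and sto-1 the 2 members with both below, against 5.35%. Of these 2, cav-1 is the gene targeted. sto-1 rests on a near tie, at 28.05 scaled CPM in cav-1 RNAi repeat 1 and 28.21 in EV repeat 1. In TPM, which scale the libraries differently and without TMM factors, that order turns, at 21.85 TPM in cav-1 RNAi repeat 1 and 20.33 TPM in EV repeat 1. Both treatments were set against the same EV libraries, so the counts of members above or below EV share their reference.

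Several members differed between the repeats, in shares near those of all genes. Over the 3 groups, 1 member was called higher in repeat 2 than in repeat 1, beside 25.2% of all genes, and 4 were called lower, beside 32.4%. The member higher in repeat 2 was sto-4, by 0.99 on the log2 scale (SE 0.22, limma-trend adjusted p = 0.00308). stl-1 was 3.10-fold lower in repeat 2, at a log2 difference of -1.63 (SE 0.24, adjusted p = 0.000301). unc-24 was lower by 0.71 in repeat 2 (log2 difference -0.71, SE 0.19, adjusted p = 0.00893), cav-1 at -0.75 (adjusted p = 0.0324) and cav-2 at -0.71 (adjusted p = 0.0308). sto-4 was the 1 member with all 3 libraries of repeat 2 above those of repeat 1, against 23.4% of all genes. cav-2, unc-24 and stl-1 had all 3 below, 3 of 10 against 26.7% of all genes. The calls of sto-4 and stl-1 held without any 1 library. That of unc-24 was lost without repeat 1 of cav-1 RNAi (-0.50, adjusted p = 0.111). That of cav-1 was lost without any 1 of the 4 RNAi libraries (-0.46 without either daf-2 RNAi library, -0.28 without repeat 1 of cav-1 RNAi and -0.46 without repeat 2), and that of cav-2 without either EV library (-0.43 for both) or either daf-2 RNAi library (-0.57 without repeat 1 and -0.56 without repeat 2).

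As an alternative, the trend of these differences on transcript length over all genes was removed, which changed some of the calls. sto-4 at 1.15 (limma-trend adjusted p = 0.00186), stl-1 at -1.31 (adjusted p = 0.002) and unc-24 at -0.55 (adjusted p = 0.0304) stayed called. cav-1 at -0.29 (adjusted p = 0.406) and cav-2 at -0.43 (adjusted p = 0.162) were no longer called. For the long mec-2 the value turned from 0.12 to -0.98 (adjusted p = 0.00113), and for sto-2 it moved from -0.14 to -0.96 (adjusted p = 0.000921). The calls of cav-1 under both treatments held with the trend removed.

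**Figure D4:**
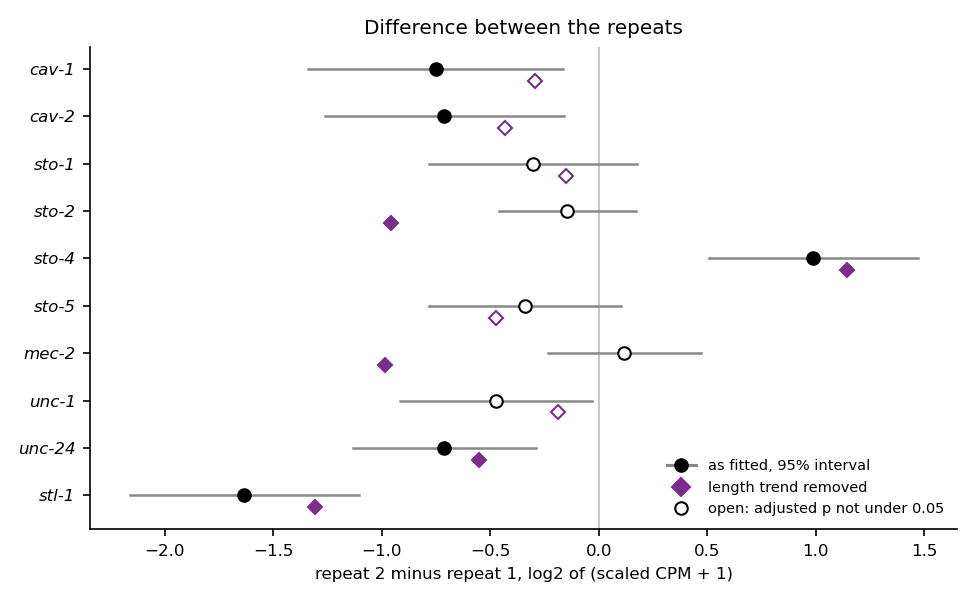
Log2 difference of repeat 2 minus repeat 1 for each gene over the 3 groups, as fitted with its 95% interval (circles) and with the trend on transcript length removed (diamonds), with open symbols where the adjusted p is not under 0.05. sto-4 and stl-1 keep their sides, and mec-2 and sto-2 move to about -1 once the trend is removed.

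The partners and relatives of these proteins were counted from lists drawn up by function. Of all tested genes, 4.31% were called higher and 3.13% lower under daf-2 RNAi, so short lists can hold no call at the background shares. Of 11 tested genes of the touch receptor neurons, such as its channel, collagen and tubulin genes, none was called under daf-2 RNAi, 9 lay above 0 and the median was 0.48, while the summed level of all 14 listed was 154 and 125 CPM in daf-2 RNAi worms, against 186 and 127 CPM in EV worms. Most of that sum was mec-15, at 90.3 and 78.3 CPM in daf-2 RNAi worms, against 143 and 101 CPM in EV worms, which was singled out after its values were seen. The other 13 genes summed to 63.3 and 46.3 CPM in daf-2 RNAi worms, against 43.02 and 26.03 CPM in EV worms. Of 9 tested channel genes tied to UNC-1 or UNC-24, among them the innexins unc-7 and unc-9, none was called and the median was 0.29. The 14 pan-neuronal genes, for synaptic vesicle and neuropeptide proteins, all lay above 0, with a median of 0.51 and no call. Their summed level was 396 and 477 CPM in daf-2 RNAi worms, against 303 and 344 CPM in EV worms. Muscle genes had a median of 0.51 with 1 of 11 called, the myosin gene myo-1 at 1.15 (SE 0.28, limma-trend adjusted p = 0.0339), and a summed level of 7787 and 6946 CPM in daf-2 RNAi worms, against 6170 and 4569 CPM in EV worms. These medians have the same sign as the differences of mec-2, unc-1 and sto-5, and their part in the values of those genes was not tested.

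Most oocyte and early embryo genes lay below 0 under daf-2 RNAi, as cav-1 did. Of 20 oocyte genes 19 lay below 0, with a median of -0.40 and no call, and their summed level was 8810 and 18780 CPM in daf-2 RNAi worms, 13000 and 23020 CPM in cav-1 RNAi worms, and 10970 and 25710 CPM in EV worms. Of the 7 early embryo genes that were tested, out of 11 listed, 5 were called lower, against 3.13% of all genes. In this list 1 gene lay above 0 and the median was -0.92. sdz-28 lay at -1.92 (SE 0.39, limma-trend adjusted p = 0.0154), pes-10 at -1.18 (SE 0.26, adjusted p = 0.0205), the homeobox gene ceh-51 at -1.14 (SE 0.26, adjusted p = 0.0268) and the T-box gene tbx-37 at -0.92 (SE 0.17, adjusted p = 0.00916). The summed level of the 11 genes was 20.3 and 8.11 CPM in daf-2 RNAi worms, 30.9 and 26.2 CPM in cav-1 RNAi worms, and 43.7 and 23.5 CPM in EV worms, and 1 of the 11 was at 0 throughout. The part of these genes' differences in the fall of cav-1 was not tested. In cav-1 RNAi worms, where cav-1 was lowest, the oocyte median was 0.22 and the early embryo median -0.135. No gene of either list was called there, as was the case for every tested gene other than cav-1.

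In lists nearer to the membrane roles of the family no gene was called under either treatment. Of all tested genes, 4.31% were called higher and 3.13% lower under daf-2 RNAi. Short lists without a call do not stand apart from that background. Of 12 genes for membrane invagination and dynamin, such as those for clathrin and its adaptors, none was called and the median was -0.06 in daf-2 RNAi worms and 0.07 in cav-1 RNAi worms. Of 6 genes of sterol handling none was called, with a median of 0.05 in daf-2 RNAi worms and of 0.08 in cav-1 RNAi worms. The 7 genes for prohibitins, an erlin relative, inner membrane proteases and cristae proteins had a median of -0.29 in daf-2 RNAi worms and of 0.11 in cav-1 RNAi worms, with no call, beside stl-1 at -0.12 and -0.60. Intestine genes went both ways under daf-2 RNAi: the esterase gene ges-1 rose by 1.56 (SE 0.24, limma-trend adjusted p = 0.00394), while the peptide transporter gene pept-1 lay at -1.69 (SE 0.29, adjusted p = 0.00741), the phosphatase gene pho-1 at -1.28 (SE 0.31, adjusted p = 0.0305) and the metallothionein gene mtl-2 at -0.93 (SE 0.22, adjusted p = 0.0291). cav-2, known from that tissue, lay at -0.08. Under cav-1 RNAi no gene of any list was called, and neither was any other tested gene except cav-1, which is in none of the lists. That outcome was the same for every list and tells nothing about any of them singly.

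**Figure D5:**
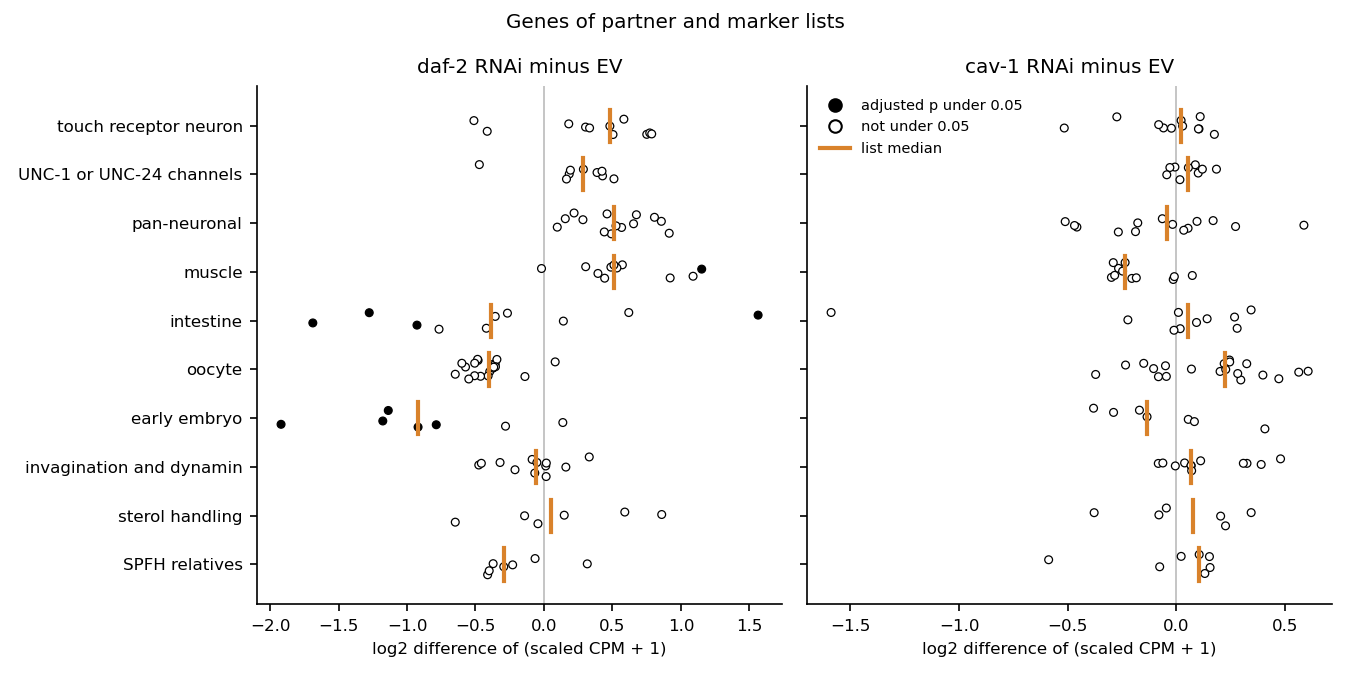
Log2 difference of (scaled CPM + 1) from EV in both RNAi groups for the tested genes of each list, a point for each gene, filled where the adjusted p is under 0.05, with the list median as a bar. Neuron and muscle genes lie mostly above 0 and oocyte and embryo genes mostly below 0 under daf-2 RNAi, with 1 filled point for muscle and 5 for the early embryo.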

How the data were processed

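Whole worms were measured in 6 libraries. The submitters' processing notes name build WBcel235 and, in no stated order, DESeq2 1.10.1, Cufflinks 2.2.1, TopHat2 2.0.13, cutadapt 1.7.1 and bcl2fastq 2.15.0.4. Not given in the sources used here are the counting tool, the annotation release and the strand mode. The authors deposited 1 table with raw read counts per gene and library and their own comparisons, with log2 fold changes and adjusted p-values. The 7 columns of normalised values in it were not used. The count columns hold no value for 494 genes and failed a format check, so the planned count test was replaced by the planned second choice, limma-trend (R 4.3.3, limma 3.58.1).

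Genes with at least 0.348 CPM in 2 libraries and 15 counts in total were tested, 14378 in all with 99.961% of the counts. TMM factors scaled the libraries (trims of 30% and 5%), a pseudocount of 1 was added, and the fit to all 6 libraries had the repeat as an additive block, 2-sided p-values and Benjamini-Hochberg adjustment within each comparison over all tested genes. The residual degrees of freedom were 2 and the prior ones 8.69. The repeat numbers come from the sample titles and the series' design text. Over the tested genes, libraries of the same repeat deviated together from their group means, with correlations of 0.891 for daf-2 RNAi with EV, 0.807 for cav-1 RNAi with EV and 0.812 for cav-1 RNAi with daf-2 RNAi. TPM were computed over all genes with an annotated transcript, without TMM factors.

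Precision is limited by the 2 libraries in each group and, for sto-2, mec-2, unc-24 and sto-5, by counts of 3 to 106. The text names all 10 members, daf-2, the 2 genes on each side of cav-1, up to 4 called genes of each list and the 5 genes nearest to cav-1. The members, lists and rules were chosen with earlier results of these data known. Of the listed genes 1 was not found in the table by its symbol. Alternatives were other scalings, filters and pseudocounts, a removed length trend, no block, each library left out and voom weights.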

Additional observations from a re-analysis of the deposited data

How the results depend on the processing

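cav-1 was lower under both treatments in every alternative. Over the 10 members, 525 of 578 alternative values kept their direction and side of the threshold, 20 lost a call, 8 gained one and 25 changed sign. Without the replicate block no gene was called in any treatment comparison: 0 genes for daf-2 RNAi against EV (777 at an unadjusted p under 0.05), 0 for cav-1 RNAi against EV (36) and 0 for cav-1 RNAi against daf-2 RNAi (827), and cav-1 kept differences of -2.55, -5.34 and -2.79. The 1070 genes called under daf-2 RNAi (620 higher, 450 lower) became 696 (529 higher, 167 lower) with the stricter filter (at least 1 CPM in all 6 libraries). They ranged from 697 without repeat 2 of daf-2 RNAi to 2197 without repeat 2 of cav-1 RNAi, with 1780 without repeat 1 of EV, and without repeat 2 of EV the 820 calls were 309 higher and 511 lower. The single call under cav-1 RNAi became 6 with median-of-ratios scaling, 5 with the stricter filter, 2 with a pseudocount of 0.25 and 2 with voom weights, an alternative chosen after seeing the data, and ranged from 0 to 401 with a library left out. cav-1 RNAi against daf-2 RNAi called 1526 genes (538 higher, 988 lower), 3097 with median-of-ratios scaling (1906 higher, 1191 lower), and 70 to 4200 with a library left out. Those extremes came without repeats 1 and 2 of cav-1 RNAi, and without EV repeat 1 or 2 or daf-2 RNAi repeat 1 it called 3078, 3057 and 998.

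Members that changed sign were not called in either setting, except mec-2 between repeats at -0.98 with the length trend removed. daf-2, which is not a member, was called higher in repeat 2 in the full fit (1.40, SE 0.32, limma-trend adjusted p = 0.00356). With the length trend removed it lay at -0.27 and was not called. In daf-2 RNAi against EV, sto-4 was 0.014 with total counts, and with a library left out the ranges were -0.50 to 0.35 for cav-2, -0.18 to 0.052 for sto-4, -0.092 to 0.43 for unc-24 and -0.48 to 0.30 for stl-1. In cav-1 RNAi against EV, sto-2 was 0.0032 with a pseudocount of 0.25 and 0.054 with voom weights, and the ranges were -0.62 to 0.25 for cav-2, -0.25 to 0.20 for sto-2, -0.31 to 0.078 for sto-5, -0.28 to 0.083 for unc-24 and -0.23 to 0.85 for daf-2. In cav-1 RNAi against daf-2 RNAi they were -0.55 to 0.28 for cav-2, -0.52 to 0.00067 for unc-24 and -1.13 to 0.070 for stl-1. The low end for stl-1 came without repeat 2 of cav-1 RNAi. Between repeats they were -0.47 to 0.023 for sto-1 and -0.21 to 0.0042 for sto-2. The cause of these shifts was not tested. The planned refit with a second count tool was not run, and sto-2, mec-2 and unc-24 have no value under the stricter filter. In groups of 2, a fit without a library assumes that the lone library varies like the others. It also estimates anew how far genes share their spread, so its p-values and calls are not on the scale of the full fit.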

Other observations

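The stomatin relatives sto-3 and sto-6, which were looked at after the values of the 10 genes were seen, were close to the floor of detection. sto-3 had 16 and 6 counts in daf-2 RNAi worms, 7 and 9 in cav-1 RNAi worms, and 9 and 6 in EV worms. sto-6 had 7 and 11 counts in daf-2 RNAi worms, 7 and 4 in cav-1 RNAi worms, and 8 and 7 in EV worms. For both genes the counts of the groups overlapped or touched.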
